A study of Mus musculus with 20 samples.

Results

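The genes described are 10 interferon-induced antiviral genes of the liver of *IMP2-2* tg mice: *Isg15*, *Usp18*, *Ifit1*, *Ifit2*, *Ifit3*, *Ifi44*, *Rsad2*, *Mx1*, *Mx2* and *Bst2*. They were chosen because earlier results of the same arrays had put interferon-induced genes higher in tg than in wt livers, so that contrast is given for them as a description, with no p value. All probe sets annotated to them were read. Of the 10 genes, 8 have a probe set of their own, out of 18194 genes with 1 on the array, and these 8 genes hold 10 probe sets. *Isg15* is read by 1 probe set that is also annotated to the pseudogene *Gm9706*, and *Ifi44* is named by none and was not analysed here. By the labels, the tg group is 10 livers of p62/*IMP2-2* transgenic mice and the wt group 10 livers of wildtype mice. All were untreated, 5 weeks old and of the mixed C57Bl6J/DBA2 background, and the transgene, a splice variant of an mRNA binding protein, is liver-specific by the series title. The sources used here do not give the promoter that drives it, and the labels of these samples give no sex.

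Type I interferons bind the receptor chains IFNAR1 and IFNAR2 on nearly every cell type, and the kinases JAK1 and TYK2 then signal to the factor ISGF3, which holds STAT2 and IRF9. ISGF3 binds interferon-stimulated response elements (ISRE) in the promoters of antiviral genes. Type III interferons use IFNLR1 and IL10RB and reach the same factor, whereas interferon gamma uses IFNGR1 and IFNGR2 and acts mostly through gamma-activated sites (GAS). Hepatocytes, Kupffer cells and endothelial cells of the liver can all respond, and in a bulk sample a change in the number of cells of a type and a change of RNA per cell cannot be told apart.

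The promoter windows of the genes are shown because the ISRE is the sequence they are known to share. RefSeq windows of GRCm38.p6, from 250 bases before to 50 bases after the annotated start, were matched for 7 of the 10 genes, without *Usp18*, *Mx1* and *Mx2*. *Ifit2* has 2 windows, so that 8 windows were searched on both strands. The ISRE core was spelled GAAANNGAAA, and the stricter form GAAACNGAAA, each match of which is also a core. In the windows shown, each match of the core is in capitals, read 5′ to 3′ in the direction of the gene, so that a match on the opposite strand stands as its reverse complement.
*Isg15*, chr4:156200769-156201068, minus strand: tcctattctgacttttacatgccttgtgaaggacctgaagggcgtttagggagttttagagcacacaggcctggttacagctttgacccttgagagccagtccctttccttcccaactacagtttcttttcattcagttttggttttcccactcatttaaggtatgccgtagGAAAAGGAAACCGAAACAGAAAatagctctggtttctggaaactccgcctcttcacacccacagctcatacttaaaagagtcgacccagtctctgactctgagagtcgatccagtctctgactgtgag
*Ifit1*, chr19:34640639-34640938, plus strand: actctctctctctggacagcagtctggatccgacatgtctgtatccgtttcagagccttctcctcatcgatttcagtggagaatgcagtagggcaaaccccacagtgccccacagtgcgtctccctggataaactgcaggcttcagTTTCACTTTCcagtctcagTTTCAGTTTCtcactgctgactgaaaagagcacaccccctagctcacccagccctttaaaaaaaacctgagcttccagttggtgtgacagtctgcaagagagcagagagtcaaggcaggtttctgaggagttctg
*Ifit3*, chr19:34583279-34583578, plus strand: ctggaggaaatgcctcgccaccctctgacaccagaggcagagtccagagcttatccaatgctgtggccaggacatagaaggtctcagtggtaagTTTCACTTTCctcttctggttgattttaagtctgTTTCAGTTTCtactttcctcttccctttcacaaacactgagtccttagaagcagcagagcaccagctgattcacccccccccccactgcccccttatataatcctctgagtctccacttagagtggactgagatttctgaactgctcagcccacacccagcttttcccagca
*Rsad2*, chr12:26456403-26456702, minus strand: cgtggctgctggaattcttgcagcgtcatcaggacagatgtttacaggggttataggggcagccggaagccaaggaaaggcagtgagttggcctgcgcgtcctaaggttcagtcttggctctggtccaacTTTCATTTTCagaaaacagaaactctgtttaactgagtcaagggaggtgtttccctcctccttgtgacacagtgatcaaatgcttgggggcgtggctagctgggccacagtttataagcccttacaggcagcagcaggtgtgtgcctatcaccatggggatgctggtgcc
*Bst2*, chr8:71537423-71537722, minus strand: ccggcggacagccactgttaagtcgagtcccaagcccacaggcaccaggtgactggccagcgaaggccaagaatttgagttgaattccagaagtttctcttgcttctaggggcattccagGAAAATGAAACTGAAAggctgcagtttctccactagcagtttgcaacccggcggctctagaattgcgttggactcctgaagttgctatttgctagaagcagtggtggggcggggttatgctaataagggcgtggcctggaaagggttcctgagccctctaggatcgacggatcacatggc
The ISRE core was found in 5 of the 7 genes, where 3.44% of 32851 windows of the same length hold it. The stricter form was found in 4 of the 7, *Isg15*, *Bst2*, *Ifit3* and *Ifit1*, against 0.685% of all windows. *Isg15* holds 3 overlapping cores on the strand of the gene, which begin 78, 72 and 66 bases before the start, and *Bst2* holds 2 overlapping cores at 130 and 124 bases. In *Ifit3* the cores lie on the opposite strand at 156 and 122 bases, in *Ifit1* at 104 and 85 bases, and *Rsad2* has 1 on the opposite strand at 120 bases. The windows of *Ifit2* and *Ifi44* hold no match of these letters. A GAS, spelled TTCNNNGAA, was found in *Bst2* and in 1 window of *Ifit2*, against 8.3% of all windows. The letters GGGANNTTCC of a kappa B site occur in *Ifit2* alone of the 7 genes, and in 1.47% of all windows. These matches are letters in a window, not measured binding sites.

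**Figure D1:**
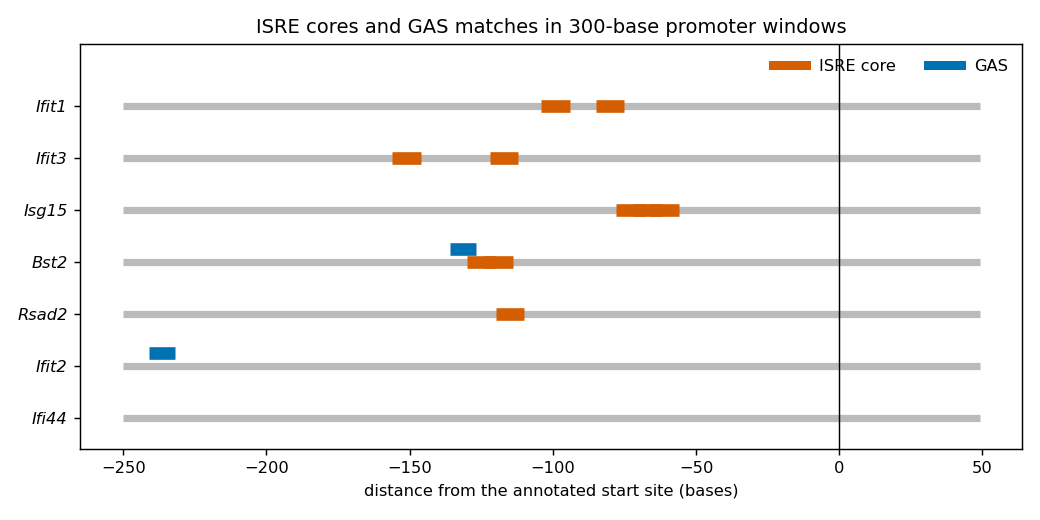
Each grey bar is the window of a gene from 250 bases before to 50 bases after the annotated start site, in bases on the x axis, with ISRE cores in orange and GAS matches in blue. The 5 genes with a core hold it between 156 and 66 bases before the start, and the 2 windows of *Ifit2* are drawn as 1 bar.

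The deposited values are log2 signals after RMA, with array medians from 4.46 to 4.55, and the number of arrays limits the precision. A level is compared between livers only, never between probe sets. 3 pairs of arrays were nearly identical. Over all probe sets, the log2 differences had an SD of 0.155 between the array labelled tg_1386_9 and the array labelled wt_1386_4, 0.168 between wt_1407_2 and wt_1420_6, and 0.172 between wt_1407_5 and wt_1420_7. The next closest pair within tg gave 0.224 and the next within wt 0.228. Across genotypes, tg_14231_6 with wt_14231_2 gave 0.228 and tg_1386_9 with wt_1371_4 gave 0.229. Whether the arrays of a nearly identical pair come from the same RNA is not known. The wt means and SDs therefore count each nearly identical wt pair once (n = 8), while the fold changes are of all 20 arrays. The livers tg_1423_2-8_1, tg_1423_2-8_4 and tg_1420_4 stood apart in earlier results, and values without them are given where these matter. Over 18194 genes with 1 probe set each, limma called 2.98% higher and 0.967% lower in tg livers, and the median log2 fold change was -0.02.

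By limma all 8 genes with their own probe set were called higher in tg livers, as were 2.98% of all genes, by 0.68 to 2.49 on the log2 scale with a median of 1.72. Since the genes were chosen on this contrast, nothing is read from that count or from the overlap of the groups. Every tg array lay above every wt array for 1 of the 8 genes, *Usp18*, where 0.115% of all genes did so. The order of the differences ran from *Ifit1* through *Rsad2*, *Isg15* with *Gm9706*, *Ifit3*, *Ifit2*, *Usp18*, *Mx1* and *Mx2* to *Bst2*. Neighbours in this order lay apart by less than the larger of their standard errors, except *Ifit3* and *Ifit2*, *Usp18* and *Mx1*, and *Mx1* and *Mx2*, and no difference between genes was tested. With each near-identical wt pair averaged, the differences of the 8 genes were 0.67 to 2.39.

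*Isg15* encodes a ubiquitin-like protein that is attached to other proteins in interferon-treated cells, and *Usp18* encodes the protease that removes it and also shuts off IFNAR signalling. The probe set of *Isg15* and *Gm9706* had a lowest, median and highest log2 signal of 7.89, 9.74 and 10.38 in tg livers, against 6.43, 7.15 and 8.04 in wt livers. The groups overlapped, because tg_14231_6 with 7.89 and tg_1386_9 with 7.97 lay under wt_1371_4 with 8.04 and wt_1386_4 with 7.98. The mean was 9.46 ± 0.94 in tg (SD, n = 10) and 7.29 ± 0.57 in wt livers (SD, n = 8), a log2 fold change of 2.22 (SE 0.31), or 4.66-fold. The probe set annotated to *Gm9706* alone, a gene that RefSeq places on chromosome 17, had a log2 fold change of 1.37 (SE 0.23). Across tg livers it followed the shared probe set with a Pearson r of 0.941, and the 2 genes cannot be told apart on the shared probe set. Whether the probe set annotated to *Gm9706* alone also reads *Isg15* was not tested.

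*Usp18* had a lowest, median and highest signal of 8.74, 9.74 and 10.01 in tg livers, against 7.26, 7.67 and 8.72 in wt livers. No tg array overlapped with wt, but tg_1386_9 with 8.74 and tg_14231_6 with 8.75 stood within 0.1 of wt_1386_4 with 8.72. The other 8 tg livers lay between 9.21 and 10.01. The mean was 9.53 ± 0.47 in tg (SD, n = 10) and 7.95 ± 0.54 in wt livers (SD, n = 8), with a log2 fold change of 1.70 (SE 0.21), or 3.25-fold.

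The *Ifit* genes encode proteins of tetratricopeptide repeats that bind viral RNA or hold back its translation, and they lie side by side on chromosome 19. By RefSeq for GRCm38.p6, *Ifit2* spans chr19:34550550-34576534, *Ifit3* chr19:34583119-34588982 and *Ifit1* chr19:34640889-34650009. *Ifit1*, whose product recognises RNA caps that lack a methyl mark, had a lowest, median and highest signal of 7.92, 9.61 and 10.33 in tg livers, against 5.95, 6.51 and 8.03 in wt livers. 9 of 10 tg livers lay above every wt liver, and the exception was tg_14231_6 with 7.92, under wt_1386_4 with 8.03. The means were 9.35 ± 0.89 in tg (SD, n = 10) and 6.96 ± 0.73 in wt livers (SD, n = 8), a log2 fold change of 2.49 (SE 0.32), or 5.61-fold, the largest of the genes by their representative probe set.

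*Ifit3*, whose product in human cells stabilises IFIT1, had a lowest, median and highest signal of 7.68, 9.43 and 10.57 in tg livers, against 6.51, 7.0 and 7.94 in wt livers. The same array, tg_14231_6, was the only tg array within the wt range. The log2 fold change was 2.12 (SE 0.33), or 4.35-fold. *Ifit2*, whose product binds AU-rich RNA, had 5.64, 7.51 and 8.51 as lowest, median and highest signal in tg livers, against 4.92, 5.48 and 5.99 in wt livers. tg_14231_6 again lay alone within the wt range, and the log2 fold change was 1.75 (SE 0.30), or 3.36-fold. The spread of *Ifit2* and *Ifit3* was wide in tg livers, with an SD of 0.96 and 0.99 (n = 10), against 0.38 and 0.55 in wt livers (n = 8).

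*Rsad2* encodes viperin, an enzyme on the endoplasmic reticulum and on lipid droplets that makes a chain-terminating nucleotide. It has 3 probe sets of its own. The brightest had a lowest, median and highest signal of 9.55, 11.21 and 12.27 in tg livers, against 7.58, 8.45 and 9.84 in wt livers. Only tg_14231_6 with 9.55 lay within the wt range, under wt_1386_4 with 9.84. The log2 fold changes of the 3 probe sets were 2.43, 2.44 and 2.51, and they followed each other across tg livers with r from 0.946 to 0.993. At these probe sets the wt livers wt_1423_2-8_9 and wt_1423_2-8_3 were lowest, with 7.58 and 7.86 on the brightest.

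*Mx1* and *Mx2* encode dynamin-like GTPases that block virus replication. Most laboratory strains carry defective *Mx1* alleles, and RefSeq lists both genes as transcribed pseudogenes of chromosome 16 in GRCm38.p6, so that a transcript level says nothing of a protein. *Mx1* had a lowest, median and highest signal of 4.57, 5.34 and 6.43 in tg livers, against 3.76, 4.09 and 4.90 in wt livers. tg_1386_9 with 4.57 lay within the wt range, and the log2 fold change was 1.26 (SE 0.21), or 2.39-fold. Its wt mean of 4.29 lies under 4.53, the median of all probe set means, where the size of a fold change is not exact. *Mx2* had 6.13, 6.61 and 7.22 in tg livers, against 5.27, 5.95 and 6.23 in wt livers, a log2 fold change of 0.78 (SE 0.15). 3 tg livers, tg_14231_6 with 6.13, tg_1423_2-8_4 with 6.19 and tg_1386_9 with 6.20, lay under the highest wt liver.

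*Bst2* encodes tetherin, which holds budding virus at the cell surface, and in mice its protein also marks plasmacytoid dendritic cells. Its probe set had a lowest, median and highest signal of 10.04, 10.70 and 10.89 in tg livers, against 9.72, 9.88 and 10.25 in wt livers. tg_1386_9 with 10.04 lay within the wt range, under wt_1371_4 with 10.25. The difference was the smallest of the genes, a log2 fold change of 0.68 (SE 0.09), or 1.6-fold.

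**Figure D2:**
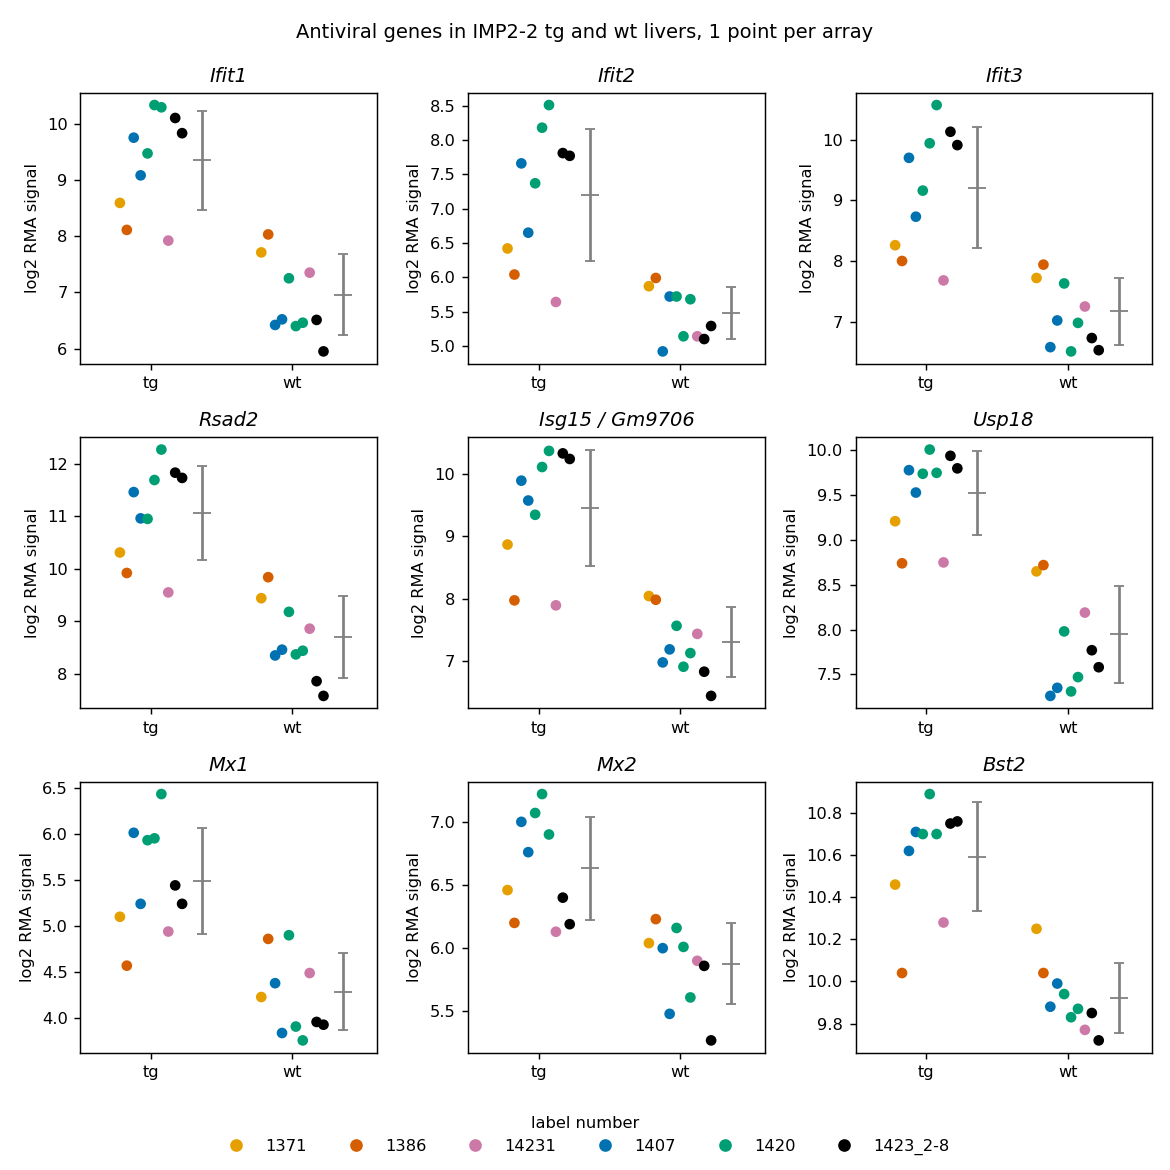
Each panel gives the log2 RMA signal (y axis) of 1 probe set in 10 tg and 10 wt arrays, coloured by the number in the sample name, with the mean and SD in grey (n = 10 for tg, n = 8 for wt with near-identical arrays averaged). The arrays tg_1386_9 and tg_14231_6 lie lowest among tg in most panels, and only *Usp18* has no overlap between genotypes.

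The same livers were low or high for most of these genes. Over the 9 probe sets that stand for the 8 genes and for *Isg15* with *Gm9706*, tg_14231_6 was among the 2 lowest tg arrays for 9 and tg_1386_9 for 8. They lay above all wt arrays for 3 and 5 of the 9. At the upper end, tg_1420_14 and tg_1423_2-8_1 were among the 3 highest for 7 each and tg_1420_4 for 6. Among wt livers, wt_1386_4 was among the 3 highest for all 9, wt_1371_4 for 8 and wt_1420_1 for 6.

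A number in the sample name is shared by livers of both genotypes, and what it stands for is unknown here. The livers that share one are called a set, named by its number. The sets set_1371, set_1386 and set_14231 hold 1 tg and 1 wt liver each, set_1407 and set_1423_2-8 hold 2 of each, and set_1420 holds 3 of each. 6 of the 8 genes were higher in tg livers within all 6 sets, beside 5.13% of all genes, and *Mx1* and *Mx2* in 5. This is the contrast on which the genes were chosen, so nothing is read from that count. Within set_1386 the 6 genes differed by no more than 0.005 to 0.08, by their representative probe set. The arrays wt_1407_2 and wt_1407_5 are nearly identical to wt_1420_6 and wt_1420_7, so set_1407 and set_1420 may not be independent. The size of the difference varied widely. *Ifit1* in tg minus wt livers was 0.07 within set_1386, whose 2 arrays are the most alike of the series, 0.58 within set_14231, 0.88 within set_1371, 2.95 within set_1407, 3.33 within set_1420 and 3.74 within set_1423_2-8. *Usp18* differed by 0.02, 0.57, 0.57, 2.35, 2.25 and 2.20 in the same order of sets. *Isg15* with *Gm9706* differed by -0.01 within set_1386 and by 3.67 within set_1423_2-8, and *Mx1* by -0.30 and 1.40.

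For *Ifit1*, the tg livers of set_1386, set_14231 and set_1371 had 8.11, 7.92 and 8.59, where the other 7 tg livers had 9.08 to 10.33. The wt livers of the same sets had 8.03, 7.35 and 7.71, where the other 7 wt arrays had 5.95 to 7.25. The variation between the sets was tested as an interaction of genotype and set in limma. That contrast was not used to choose the genes, but the test was chosen with earlier results of these arrays known. None of the 11 probe sets passed after adjustment over 45101 probe sets, where 0.0155% did. The smallest adjusted p was 0.0597 for *Usp18*, followed by 0.0655 for *Isg15* with *Gm9706* and 0.0962 for *Ifit1*. Before adjustment all 11 had p below 0.05, which 6.51% of all probe sets had, and the smallest limma adjusted p was that of *Usp18* in each alternative. It was 0.0481 with the near-identical wt arrays averaged, 0.0737 among brighter probe sets, 0.336 without set_1423_2-8 and 0.118 without tg_1386_9 and wt_1386_4, the last an alternative added after the data had been seen. With p below 0.05 before adjustment there were 10, 10, 11 and 9 of the 11 probe sets in these settings. Without tg_1386_9 and wt_1386_4, *Mx1* and *Mx2* had an unadjusted limma p of 0.147 and 0.111. The 11 are not separate results, since 3 of them read *Rsad2* and the genes varied together. The fit leaves 8 residual degrees of freedom, and 3 of the 6 sets hold 1 liver per genotype.

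**Figure D3:**
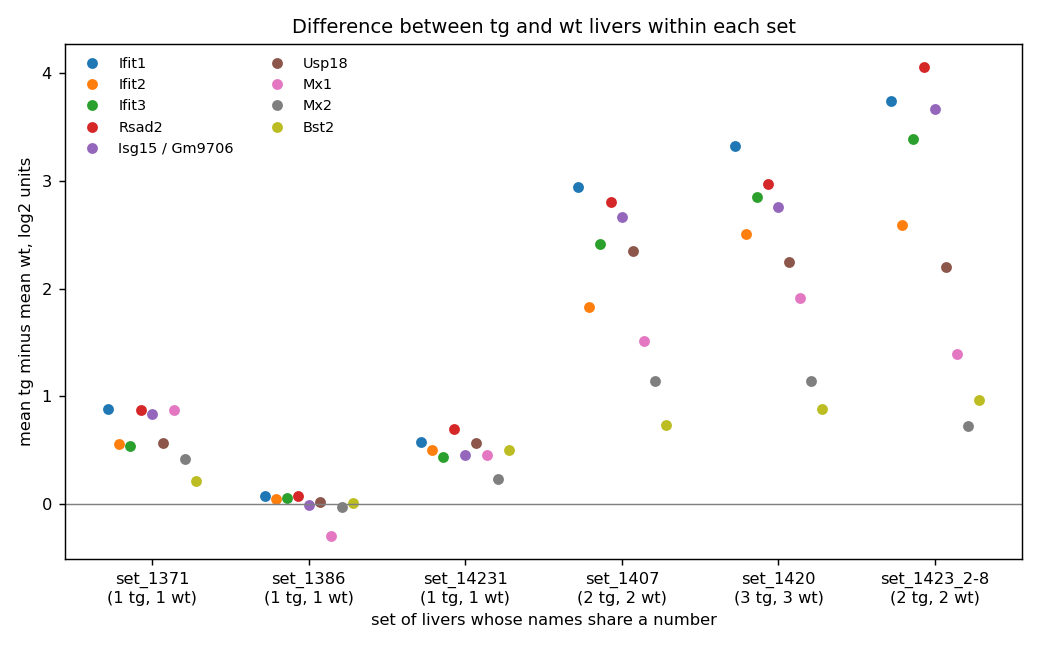
Each point is the mean of tg minus the mean of wt livers in log2 units (y axis) for 1 probe set within 1 of the 6 sets of livers whose names share a number (x axis, with the livers per genotype). The sets set_1371, set_1386 and set_14231 lie at -0.30 to 0.88, and the other 3 sets lie higher for each gene, up to 4.06 for *Rsad2*.

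Without the near-identical arrays tg_1386_9 and wt_1386_4 every difference was larger, with 2.76 for *Ifit1*, 2.35 for *Ifit3*, 2.69 for *Rsad2*, 1.89 for *Usp18*, 2.47 for *Isg15* with *Gm9706*, 1.43 for *Mx1*, 0.87 for *Mx2* and 0.75 for *Bst2*. Without the 3 tg arrays that stand apart, *Ifit1* differed by 2.18, *Ifit2* by 1.39, *Ifit3* by 1.69 and *Usp18* by 1.57.

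Across the 10 tg livers the genes varied together. Pearson r between the 36 pairs of the 9 probe sets was 0.502 to 0.99 with a median of 0.861, and in the 8 wt profiles 0.261 to 0.976 with a median of 0.767. These values are descriptions of arrays that share a normalization. With *Ifit1*, whose correlations were tested as 1 family of 17 relations by permutation of livers without regard to sets, *Ifit2* had r = 0.986 and rho = 0.988 in tg livers (adjusted permutation p = 5.67e-05 and 3.4e-04, n = 10). Its unadjusted p for r, 1e-05, is the smallest that the draws can give. Arrays of a set were correlated, and the permutation p values make no allowance for that. *Ifit3*, *Rsad2*, *Isg15* with *Gm9706* and *Usp18* had r = 0.979, 0.977, 0.966 and 0.963, with adjusted permutation p from 5.67e-05 to 3.4e-04 and rho from 0.915 to 0.964. Without tg_14231_6 and tg_1386_9, the tg livers farthest from the median of *Ifit1*, these 5 kept r from 0.915 to 0.972. *Bst2* had r = 0.882 and rho = 0.782 (adjusted permutation p = 0.0017 and 0.0183, n = 10), and r = 0.759 without these 2 livers.

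*Mx2* followed *Ifit1* least, with r = 0.617 and rho = 0.552 (adjusted permutation p = 0.0665 and 0.118, n = 10), and r = 0.276 without the 2 farthest livers. In tg_1423_2-8_1 and tg_1423_2-8_4 *Ifit1* was at 10.10 and 9.83, near the top of tg livers, but *Mx2* at 6.40 and 6.19, near the bottom. Without the 3 tg livers that stand apart, these 2 and tg_1420_4, r between *Mx2* and *Ifit1* was 0.98 (adjusted exact permutation p = 0.00225, n = 7), a relation seen after the values were known. r with *Ifit1* in the same 7 livers was 0.99 for *Ifit2*, 0.917 for *Mx1* and 0.896 for *Bst2* (adjusted exact permutation p = 0.00225, 0.0142 and 0.0142, n = 7). *Mx1* was likewise at 5.44 and 5.24 in these 2 livers, in the middle of tg livers, and had r = 0.813 and rho = 0.794 with *Ifit1* (adjusted permutation p = 0.00918 and 0.0165, n = 10), and r = 0.656 without the 2 farthest livers. Within sets, with each value taken minus the mean of its set over the 7 tg livers of set_1407, set_1420 and set_1423_2-8 (4 residual degrees of freedom, no test), r with *Ifit1* was 0.941 for *Ifit2*, 0.912 for *Ifit3*, 0.91 for *Isg15* with *Gm9706* and 0.868 for *Rsad2*. It was 0.743 for *Usp18*, 0.707 for *Mx1*, 0.407 for *Mx2* and 0.157 for *Bst2*. The relation of *Bst2* was thus not seen within sets, where 4 residual degrees of freedom cannot decide whether it holds. These within-set values were added after the data had been seen.

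**Figure D4:**
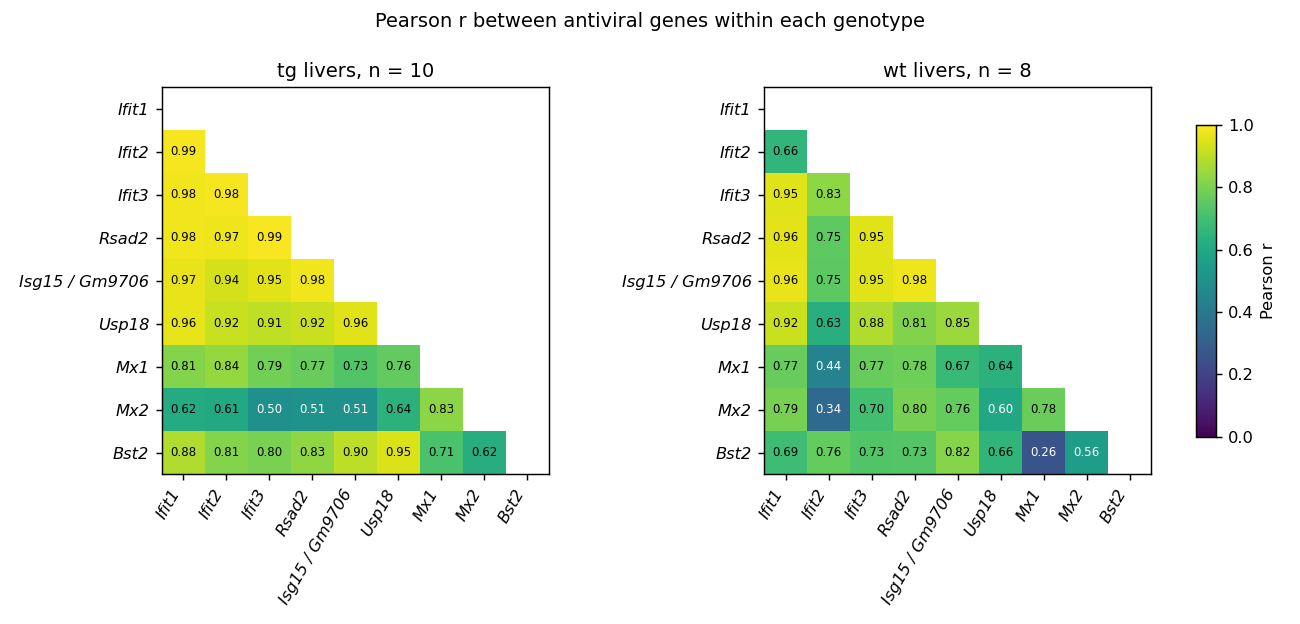
Pearson r of each pair of probe sets across 10 tg livers (left) and 8 wt profiles (right), on a colour scale from 0 to 1. Among tg livers the *Mx2* row holds the lowest values, down to 0.502, and the pairs among *Ifit1*, *Ifit2*, *Ifit3* and *Rsad2* lie at the top of the scale.

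The genes most alike in pattern, by Pearson r with the mean of the standardised genes over 20 arrays after removal of the genotype means, were *Rtp4* (0.944), *Irgm1* (0.940), *Ddx58* (0.937), *Samd9l* (0.935), *Oas1a* (0.927), *Ifih1* (0.926), *Gbp6* (0.921) and *Cxcl10* (0.92). They came from 11775 candidate genes with a mean at or above 4.53. *Ddx58* and *Ifih1* encode the cytosolic RNA sensors RIG-I and MDA5, *Oas1a* an oligoadenylate synthetase, *Irgm1* and *Gbp6* interferon-induced GTPases, and *Cxcl10* a chemokine.

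Upstream of these genes, none of the interferon ligands measured passed the test. 10 of 19 ligand genes have a probe set of their own, and 8 of these 10 had a mean under 4.53, where a low level cannot be told from none. *Ifnb1*, the interferon beta made first after infection, had a log2 mean of 3.97 in tg and 4.01 in wt livers, and *Ifng*, the interferon of T and NK cells, 2.77 in both. *Ifna1* and *Ifna2* had log2 fold changes of -0.17 and -0.15, *Ifna9* -0.17, and the remaining 7 lay between -0.15 and 0.00. 2 of the 10, *Ifna1* and *Ifna9*, were lower at an unadjusted limma p below 0.05, and 0 were called.

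Of 12 receptors and signal transducers, 5 rose and 0 fell, beside 2.98% and 0.967% of all genes. *Irf7*, the factor that amplifies interferon production, rose by 1.56 (SE 0.18, limma adjusted p = 2.76e-04). *Stat2* rose by 0.62 (adjusted p = 0.0112) and *Irf9* by 0.61 (adjusted p = 0.00581), which encode partners in ISGF3. *Ifngr1*, the ligand-binding chain for interferon gamma, rose by 0.60 (adjusted p = 0.0206), and *Il10rb*, shared by interferon lambda and interleukin 10 family receptors, by 0.42 (adjusted p = 0.0354). The receptor chains *Ifnar1* (0.07, adjusted p = 0.443), *Ifnar2* (-0.29, adjusted p = 0.0917), *Ifnlr1* (0.12) and *Ifngr2* (0.01, adjusted p = 0.971) did not pass. Neither did the kinases *Jak1* (0.16), *Jak2* (0.12) and *Tyk2* (0.07). Among tg livers *Irf9* followed *Ifit1* with r = 0.930 and rho = 0.842 (adjusted permutation p = 8.22e-04 and 0.00906, n = 10) and *Irf7* with r = 0.886 and rho = 0.721 (adjusted permutation p = 0.00293 and 0.0284). Without the 2 farthest livers r was 0.821 and 0.714, and without the 3 that stand apart 0.958 and 0.881 (adjusted exact permutation p = 0.00225 and 0.0229, n = 7). Within sets r was 0.846 and -0.10. The relation of *Irf7* was thus not seen within sets, where it was not tested and 4 residual degrees of freedom cannot decide it. With each near-identical wt pair averaged 3 of the 12 were called, without the 3 tg arrays that stand apart 2, and without set_1423_2-8 1.

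Of the 6 enzymes that conjugate ISG15, 4 rose, where 2.98% of all genes did. They were *Herc6*, the ligase of the mouse (1.38, SE 0.16, adjusted p = 2.76e-04), *Uba7*, the activating enzyme (0.81, adjusted p = 0.00161), *Ube2l6*, the conjugating enzyme (0.45, adjusted p = 0.0135), and *Trim25* (0.35, adjusted p = 0.0293). 2 of the 4 were called in each of 3 smaller sets, with near-identical wt arrays averaged, without the 3 tg arrays that stand apart and without set_1423_2-8. Of 9 close relatives or neighbours of the genes, 5 rose, led by *Ifi27* (1.49, adjusted p = 4.85e-04), *Cmpk2*, the neighbour of *Rsad2* (1.46, adjusted p = 0.00656), *Ifit1bl1* (1.44, adjusted p = 0.012) and *Ifi27l2a* (1.40, adjusted p = 0.00115). The wt mean of *Ifit1bl1*, 3.31, is below 4.53. Without set_1423_2-8 3 of the 9 were called.

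Of 34 other antiviral genes known to respond to interferon, 27 rose and 0 fell, beside 2.98% and 0.967% of all genes. The median log2 fold change was 0.77 over the list and -0.02 over all genes. The largest were *Oas1a* (2.32, SE 0.29, adjusted p = 3.29e-04), the putative helicase gene *Ddx60* (1.73, adjusted p = 0.00115), *Oasl2* (1.71, adjusted p = 5.01e-04) and *Samd9l* (1.6, adjusted p = 4.41e-04). Of 17 genes best known as interferon gamma targets, 9 rose and 0 fell. *Gbp3* (2.16, adjusted p = 6.58e-04), *Cxcl10* (1.87, adjusted p = 0.00115), the peptide transporter *Tap1* (1.15, adjusted p = 0.0049) and *Gbp2* (1.12, adjusted p = 0.0114) led. At an unadjusted limma p below 0.05, 11 of the 17 were higher and 2 lower, *Cd74* (-0.34, adjusted p = 0.11) and *Ciita* (-0.17, adjusted p = 0.0985), which serve antigen presentation by MHC class II. The class II genes *H2-Aa*, *H2-Ab1* and *H2-Eb1* had -0.19, -0.22 and -0.15. Many of these also respond to type I interferon. Both lists were written with results of these arrays known, and without set_1423_2-8 they held 13 and 3 calls.

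Of 12 brakes of the pathway, among them *Socs1* (0.12, adjusted p = 0.256) and *Socs3* (-0.62, adjusted p = 0.323), 0 passed, 5 had an unadjusted limma p below 0.05, and 1, *Pias2*, was called with the set as a fixed term and 0 with it as a random block. Of 15 genes of NF-kB and the acute phase, 0 passed and 4 had an unadjusted p below 0.05. *Tnfaip3*, an NF-kB target gene, was called with the set as a fixed term, not as a random block, and without the near-identical pair tg_1386_9 and wt_1386_4.

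**Figure D5:**
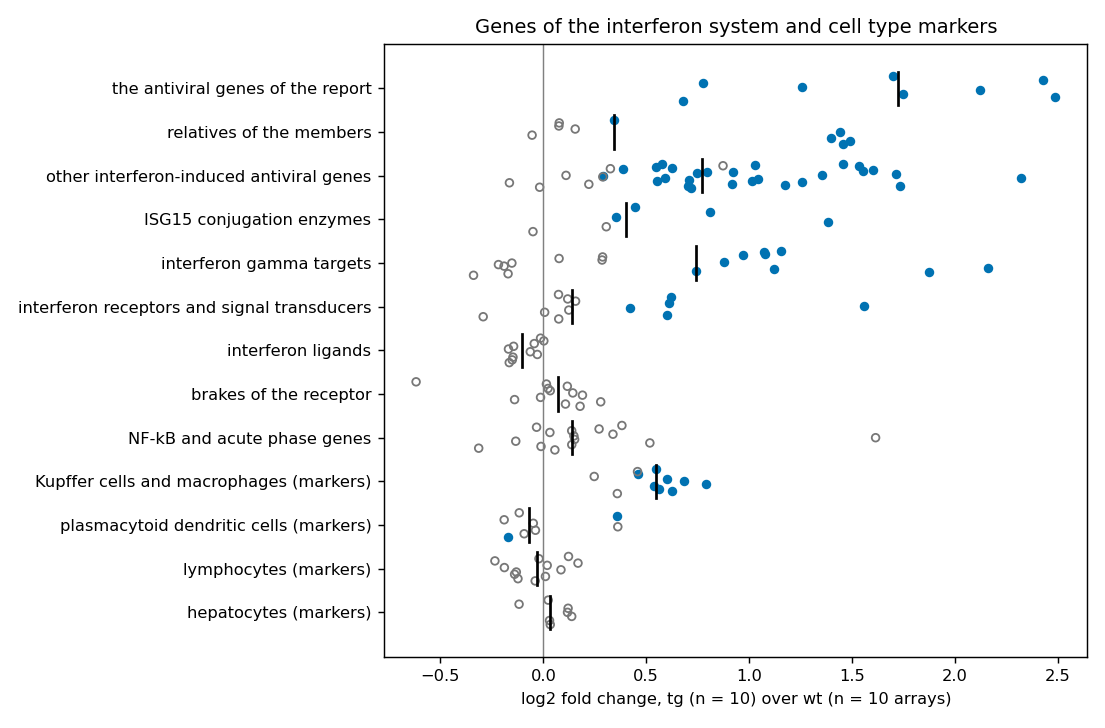
Each point is the log2 fold change of tg over wt livers (x axis) of 1 gene, filled in blue if limma called it and open if not, with a black line at the median of each list. The antiviral genes, of which 8 are drawn, have a median of 1.72, and the interferon ligands one of -0.10.

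Markers of other cells moved beside these genes, and the calls among markers were not repeated with arrays or sets left out. Of 11 markers of Kupffer cells and macrophages 8 rose and 0 fell, beside 2.98% and 0.967% of all genes, with a median of 0.55. The sum of their log2 signals was 85.5 to 94.1 in tg livers against 81.8 to 88.7 in wt livers. Among them *Clec4f* rose by 0.60 (adjusted p = 0.00924) and *Cd5l* by 0.79 (adjusted p = 0.0106), while *Adgre1* (0.36, adjusted p = 0.0667), *Csf1r* (0.25, adjusted p = 0.067) and *Timd4* (0.46, adjusted p = 0.0555) did not pass. Across tg livers *Ifit1* and *Clec4f* had r = 0.740 and rho = 0.758 (adjusted permutation p = 0.0215 and 0.0199, n = 10). *Ifit1* and *Adgre1* had r = 0.771 and rho = 0.830 (adjusted permutation p = 0.00956 and 0.00969, n = 10). Both relations were weaker without the 2 livers farthest from the median of *Ifit1*, with r of 0.356 and 0.415. Without the 3 tg livers that stand apart r was 0.704 and 0.756 (adjusted exact permutation p = 0.108 and 0.0638, n = 7), and within sets -0.01 for *Clec4f* and 0.808 for *Adgre1*. The part of these cells in the difference between genotypes was not tested.

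Of 8 markers of plasmacytoid dendritic cells, a strong source of interferon, *Tlr7* rose by 0.36 (adjusted p = 0.0102) and *Ccr9* fell by 0.17 (adjusted p = 0.0283). Both are dim, with log2 means of 4.71 in tg and 4.35 in wt livers for *Tlr7* and 3.77 in tg and 3.94 in wt livers for *Ccr9*, so that the size of these changes is not exact. The summed log2 signal of the 8 was 35.5 to 37.3 in tg and 35.7 to 37.3 in wt livers. *Siglech*, a defining marker of these cells, had a log2 mean of 4.06 in tg and 4.25 in wt livers, below 4.53. Its r with *Ifit1* across tg livers was -0.01, with a rho of -0.02 (adjusted permutation p = 0.971 and 0.973, n = 10). Of 12 lymphocyte markers, 6 neutrophil markers and 4 monocyte markers 0 were called, and 2, 0 and 0 had an unadjusted limma p below 0.05. The summed signal was 49.1 to 52.4 in tg against 49.7 to 51.4 in wt livers for lymphocytes, and 28.5 to 40.6 in tg against 28.0 to 35.0 in wt livers for neutrophils. Of 6 endothelial markers 1, *Lyve1*, rose, by 1.0 (adjusted p = 0.0214). 0 of 7 hepatocyte markers were called, and these, which define the tissue, had mean log2 signals of 13.5 to 13.7 in tg and 13.5 to 13.6 in wt livers.

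Signs of RNA quality overlapped between the genotypes. The 3′ minus 5′ log2 signal of *Gapdh* control probe sets was -0.17 to 0.22 in tg and -0.18 to 0.28 in wt livers, and that of actin 1.08 to 1.51 in tg and 0.95 to 1.64 in wt livers.

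Across tg livers *Afp*, the fetal serum protein gene, had r = 0.816 and rho = 0.770 with *Ifit1* (adjusted permutation p = 0.00918 and 0.0199, n = 10), and r = 0.67 without the 2 farthest livers. Without the 3 livers that stand apart it no longer passed, with r = 0.77 (adjusted exact permutation p = 0.0638, n = 7), and within sets r was 0.626. *Alb* had r = 0.804 and rho = 0.903 with *Ifit1* (adjusted permutation p = 0.00956 and 0.00266, n = 10), and r = 0.837 without the 2 farthest livers. Without the 3 that stand apart r was 0.699 (adjusted exact permutation p = 0.0931, n = 7). Within sets r was 0.973, the highest of the 17 relations. The *Alb* signal spanned no more than 14.35 to 14.49 in tg livers, at the top of the scale. Nothing is read from these values for *Alb* itself, but they limit how the other relations with *Ifit1* can be read. Of the remaining relations in tg livers, the progenitor marker *Bex1* had r = 0.754 and rho = 0.758 (adjusted permutation p = 0.0211 and 0.0199, n = 10), and r = 0.582 without the 2 farthest livers, 0.606 without the 3 that stand apart (adjusted exact permutation p = 0.178, n = 7) and 0.575 within sets. The T cell marker *Cd3e* had r = -0.619 and rho = -0.394 (adjusted permutation p = 0.0614 and 0.28, n = 10).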

How the data were processed

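RNA of the livers (10 *IMP2-2* tg, 10 wt) was hybridised to Affymetrix mouse arrays, and the authors deposited log2 signals of 45101 probe sets after RMA. The RMA version is unknown here, and the deposited values were not normalized again except as an alternative. The supplied annotation gives 1 symbol to 34958 probe sets, several to 932 and none to 9211. Only probe sets with a single symbol name a gene, and among several of a gene the brightest on average was taken. limma 3.58.1 in R 4.3.3 compared genotypes over all 20 arrays without further terms, with Benjamini-Hochberg adjustment over all probe sets and a threshold of 0.05. Correlations were tested with permutations in Python 3.11.15 with numpy 2.4.6, exact for 8 or fewer livers and with 100000 draws for 10. The ranks for rho came from scipy 1.17.1.

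The genes, the lists and the tests were chosen with earlier results of these data known. All probe sets of the antiviral genes were named. Of each other list, the 4 called genes with the largest change were eligible, beside all ligands, receptors and transducers, and so were the 8 genes most alike in pattern. *Ifna9*, *Pias2*, *Tnfaip3*, *Socs1*, *Socs3*, *Adgre1*, *Csf1r*, *Timd4*, *Cd74*, *Ciita*, *H2-Aa*, *H2-Ab1* and *H2-Eb1*, and the genes correlated with *Ifit1*, are named beside that rule.

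Livers whose names share a number form a set. Arrays of the same set correlated across genotypes after removal of the genotype means, with 0.184 to 0.404 per set, and 5 of 6 sets correlated best with themselves. The consensus correlation was 0.082. The pairing rests on these correlations and on the sample names alone. p values measure the spread between these arrays. The functions were tested on simulated data. Alternatives were the set as a fixed or random term, other scalings, a filter on dim probe sets, other choices of probe set, near-identical arrays averaged, and arrays or sets left out. Promoter windows are from RefSeq.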

Additional observations from a re-analysis of the deposited data

How the results depend on the processing

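All 341 differences of the antiviral genes under the alternatives kept their direction, between 0.61 and 0.75 for *Bst2* and between 2.18 and 2.76 for *Ifit1*. The genes were chosen on this contrast, so no support is drawn from that count. Alternatives such as the set as a fixed or random term and the filter on dim probe sets also leave these differences unchanged. Of 322 values of the other results, which are counts of calls and have no direction, 263 moved little and 59 moved more. Of all probe sets, 850 were higher and 299 lower in tg livers. The set as a fixed term gave 1634 and 607, near-identical wt arrays averaged 245 and 31, the 3 tg arrays that stand apart left out 158 and 8, and set_1423_2-8 left out 69 and 5. The lower count was also 542 with the set as a random block, 476 after renewed quantile normalization, 156 with arrays centred on their medians and 484 without tg_1386_9 and wt_1386_4. Leaving out single arrays gave 391 to 1684 higher and 72 to 776 lower. Calls among the 12 receptors and transducers were 3 with near-identical wt arrays averaged, 2 without the 3 arrays and 1 without set_1423_2-8, instead of 5. For ISG15 enzymes they were 2 in each of these 3 settings and with the dimmest probe set per gene, instead of 4. Without set_1423_2-8 they were 3 for relatives, 13 for other antiviral genes and 3 for interferon gamma targets. Among brakes 1 was called with the fixed term and 1 with the dimmest probe set, instead of 0. Among NF-kB and acute phase genes 1 was called with the fixed term, 1 without tg_1386_9 and wt_1386_4, and 0 to 2 with single arrays left out, where leaving out tg_1371_2, tg_1386_9 or tg_14231_6 brought a call. The interaction was called at 7 probe sets, at 1 with brighter probe sets only at 0 without set_1423_2-8 and at 15 without tg_1386_9 and wt_1386_4, an alternative chosen after the data had been seen. The cause of these shifts was not tested. Sets with 1 liver per genotype limit every value within a set.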
